A study of Mus musculus with 21 samples.

Results

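The 9 genes described here encode the calcium-dependent phosphatase calcineurin, its endogenous inhibitors and the transcription factors it activates: Rcan1, Rcan2, Ppp3ca, Ppp3cb, Ppp3r1, Nfatc1, Nfatc2, Nfatc3 and Nfatc4. They were chosen by gene symbol, for membership of this pathway, with earlier results of these data known. All 9 passed the filter on low counts among 15216 genes tested. RNA was sequenced from the hearts of 21 male C57BL/6NJ mice, 1 library per heart, in a study that combined obesity and hypertension to model heart failure in which the ejection fraction is preserved. Mice entered the study at 8 to 10 weeks of age and for 10 weeks ate chow or a high-fat diet (HFD, in which fat supplied 60% of the energy). Each received a retro-orbital injection of adeno-associated virus, either encoding Renin or empty (a null vector). Hearts were taken 6 weeks after injection. The groups are called chow null (n = 4), chow renin (n = 6), HFD null (n = 6) and HFD renin (n = 5) after diet and virus. The sample labels write novirus for the null vector groups, and the promoter that drives renin is not given in the sources used here. The labels name no change to a calcineurin or NFAT gene.

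Each chow null library held between 18571206 and 21223358 reads assigned to genes, and libraries of the other groups held 22606674 to 29014523. Ren1 had reads in 4 of 21 libraries with no more than 5 per library, and heart RNA therefore does not show which animals received renin. Sln, a gene of atrial muscle, exceeded 10 CPM in 5 libraries (chow null replicate 3, chow renin replicates 1 and 3, HFD null replicate 3 and HFD renin replicate 3), which therefore held atrial transcripts. Nnt, a mitochondrial transhydrogenase that differs between C57BL/6 substrains, was lowest in HFD null replicate 6, at 181 CPM, while the other 20 libraries held 539 to 973 CPM. Summed markers of central neurons were 264 to 403 CPM in chow renin and 103 to 170 CPM in the other groups. CPM are counts scaled to a common library size, with TMM factors.

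Calcineurin is a heterodimer of a catalytic A subunit and a regulatory B subunit, and calmodulin switches it on when cytosolic calcium rises. The active phosphatase removes phosphates from NFAT proteins, which then enter the nucleus and act on DNA together with partners such as GATA4 and AP-1. In cardiac muscle this pathway is known for driving hypertrophic growth. The RCAN proteins bind calcineurin and restrain it, and transcription of Rcan1 from a downstream first exon is itself known to respond to calcineurin and NFAT, which makes that transcript a common readout of pathway activity.

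Because Rcan1 has separate promoters, the 250 bases before each RefSeq start site (GRCm38.p6) are shown, 5′ to 3′ on the minus strand of chromosome 16. The downstream window is chr16:92400079-92400328 and the upstream window is chr16:92466170-92466419, and the annotated starts of Rcan1-201 and Rcan1-202, 1 base and 23 bases from these RefSeq starts, lie 66069 bases apart. Capitals mark matches on either strand to 3 motifs chosen with these sequences in view: GGAAA, the core that NFAT proteins contact, TGACTCA, an AP-1 motif, and TGACGTCA, a cyclic AMP response element.
Rcan1 downstream: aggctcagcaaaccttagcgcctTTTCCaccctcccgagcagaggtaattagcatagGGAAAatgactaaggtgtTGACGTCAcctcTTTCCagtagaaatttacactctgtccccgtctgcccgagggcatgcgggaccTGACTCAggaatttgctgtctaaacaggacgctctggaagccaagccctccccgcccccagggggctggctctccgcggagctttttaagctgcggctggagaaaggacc
Rcan1 upstream: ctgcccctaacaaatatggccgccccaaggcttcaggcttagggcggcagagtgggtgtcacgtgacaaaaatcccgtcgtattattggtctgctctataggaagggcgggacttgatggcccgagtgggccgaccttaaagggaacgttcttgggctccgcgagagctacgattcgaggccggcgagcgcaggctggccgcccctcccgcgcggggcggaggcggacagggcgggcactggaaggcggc
Counted from 1 at its 5′ end, the downstream window held GGAAA 3 times, at positions 24, 58 and 88, TGACGTCA at 76 and TGACTCA 110 bases before the start, with no overlap between matches. The upstream window held none of them. Of 32851 RefSeq promoter windows of the same length, 55.6% held GGAAA at least once and 6.39% at least 3 times, 4.46% held TGACTCA and 1.55% held TGACGTCA. Promoter windows were matched for 7 of the 9 genes (12 windows), and single windows of Nfatc2, Ppp3cb and Nfatc4 also held GGAAA 3 times, and 1 window of Rcan2 held TGACTCA, 25 bases before its start. A match is a description of letters and not a binding site.

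Levels are compared between genes in TPM, which corrects for transcript length. In chow null the highest was Rcan2 at 117 ± 9.74 TPM (SD, n = 4), followed by Rcan1 at 25.2 ± 6.12, Ppp3r1 at 23.6 ± 1.60, Ppp3cb at 20.4 ± 1.80 and Ppp3ca at 15.2 ± 1.36. The NFAT factors were lower, with Nfatc1 at 3.85 ± 0.43 TPM, Nfatc2 at 3.28 ± 0.40, Nfatc3 at 2.31 ± 0.27 and Nfatc4 at 2.12 ± 0.42. The 4 chow null libraries overlapped between Rcan1 and Ppp3r1, between Ppp3r1 and Ppp3cb, between Nfatc1 and Nfatc2, and between Nfatc3 and Nfatc4, so the order of these neighbours is not separated beyond their spread. In bulk tissue, fewer cells of a type and less RNA per cell cannot be told apart.

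Rcan1 (ENSMUSG00000022951, chromosome 16, 92391953 to 92470867 on GRCm38) was higher in the hearts with both the high-fat diet and renin than in each of the other 3 groups. In replicate order it measured 59.6, 55.2, 83.8 and 58.9 CPM in chow null and 70.6, 72.9, 70.8, 65.7, 87.8 and 58.9 CPM in chow renin. It measured 64.3, 61.3, 55.8, 52.9, 62.2 and 48.5 CPM in HFD null and 314, 156, 86.0, 79.1 and 162 CPM in HFD renin. All 5 HFD renin hearts lay above all 6 HFD null hearts, 4 lay above all chow null hearts and 3 above all chow renin hearts. Spread was unequal: 2 HFD renin hearts, replicates 3 and 4, were near the top of the other groups, and replicate 1 stood alone at the top.

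By the edgeR quasi-likelihood test, Rcan1 in HFD renin was higher than in HFD null at a log2 fold change of 1.47 (SE 0.26, adjusted p 0.00243), larger in size than 99.3% of the 15216 genes tested. Against chow null its log2 fold change was 1.31 (SE 0.30, adjusted p 0.0120 by edgeR), and against chow renin it was 1.16 (SE 0.26, adjusted p 0.00299 by edgeR). Renin on chow gave 0.14 (SE 0.28, adjusted p 0.821 by edgeR) and HFD null against chow null gave −0.16 (SE 0.28, adjusted p 0.873 by edgeR). The interaction, which subtracts the renin effect on chow from that on HFD, was 1.33 (SE 0.38, adjusted p 0.0302 by edgeR). In size, Rcan1 ranked above 98.1% of the genes tested against chow null, 92.1% against chow renin and 92.65% for the interaction. For renin on chow and for HFD null against chow null it ranked above 50.5% and 64.1%. These comparisons share groups, so they are not independent of each other. The call against HFD null held without each of 11 libraries in turn (adjusted p at most 0.00842), and the value was 1.06 without HFD renin replicate 1. Without that library the value against chow renin was 0.74, that against chow null 0.90 and the interaction 0.91. The calls against chow renin and chow null held without each library in turn (edgeR adjusted p at most 0.009 and 0.0474). The interaction lost its call without chow null replicate 1 or 3, chow renin replicate 1 or 3 or HFD null replicate 3, with adjusted p from 0.0501 to 0.0704 by edgeR, and without the filter on low counts (edgeR adjusted p 0.0534).

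The increase of Rcan1 lay mainly in the transcript that starts at the downstream first exon, Rcan1-201. It measured 3.05, 1.70, 11.6 and 2.86 TPM in chow null, 10.8, 11.0, 13.6, 7.92, 13.5 and 5.10 TPM in chow renin, 5.32, 3.76, 3.16, 3.21, 2.23 and 3.54 TPM in HFD null and 104, 36.5, 14.7, 13.1 and 42.1 TPM in HFD renin. HFD renin hearts did not overlap with either null group, and chow renin overlapped with every other group, with replicate 6 lowest. Among 40861 transcripts tested, Rcan1-201 was higher in HFD renin than in HFD null by a log2 fold change of 3.42 (SE 0.50, adjusted p 0.00452 by edgeR). Against chow null it was higher by 3.11 (SE 0.58, adjusted p 0.0134 by edgeR) and against chow renin by 2.08 (SE 0.48, adjusted p 0.0143 by edgeR). The background was 1.6%, 1.12% and 3.82% of transcripts called in these comparisons. Its log2 fold change for renin on chow was 1.04 (SE 0.53, adjusted p 0.479 by edgeR) and its interaction was 2.39 (SE 0.69, adjusted p 0.113 by edgeR), so neither passed, where 2.46% and 1.44% of transcripts were called. No transcript was called between HFD null and chow null (0% of those tested, also 0 of the 34 tested transcripts of the 9 genes).

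The Rcan1-201 call against chow null was lost without chow null replicate 1, 2 or 4, with log2 fold changes of 2.83 to 2.96 and adjusted p of 0.0577 to 0.0660 by edgeR. With the clock score in the fit it was also lost (0.41, edgeR adjusted p 1), as was the call against HFD null (1.49, edgeR adjusted p 1), and 0 of the 40861 transcripts were called in either comparison. The call against chow renin was lost without HFD renin replicate 1, at 1.48 (edgeR adjusted p 0.0792), and also without the filter on low counts (2.08, edgeR adjusted p 0.0514), with a replicate block (1.87, edgeR adjusted p 0.0522), with the clock score (1.07, edgeR adjusted p 0.213) and with the central nervous score (0.19, edgeR adjusted p 1). Rcan1-202, the main transcript of the upstream first exon, ranged from 15.1 to 28.9 TPM over all 21 hearts. It measured 20.3 ± 1.70 TPM in chow null, 19.7 ± 2.06 in chow renin, 17.1 ± 1.55 in HFD null and 22.4 ± 4.50 in HFD renin (SD, n = 4, 6, 6 and 5). Between HFD renin and HFD null the log2 fold change was 0.26 (SE 0.10, adjusted p 0.241 by edgeR), and it was called in 0 of 6 comparisons, with an unadjusted p under 0.05 in 3 of them. Rcan1-205, an upstream transcript that also passed the filter, had reads in 5 libraries, at 7.18 and 1.69 TPM in HFD renin replicates 1 and 2, 0.484 and 1.27 TPM in chow renin replicates 2 and 4 and 0.415 TPM in chow null replicate 1.

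The share of Rcan1 TPM that came from the downstream first exon was 13.4%, 7.91%, 33.7% and 12.8% in chow null and 34.5%, 37.96%, 43.5%, 28.6%, 36.7% and 20.8% in chow renin. It was 22.1%, 19.1%, 14.6%, 17.2%, 11.2% and 18.97% in HFD null and 74.8%, 60.4%, 43.2%, 44.4% and 64.4% in HFD renin. The HFD renin hearts lay above all hearts of both null groups and overlapped with chow renin only through its replicate 3. Group means were 17.0% ± 11.4, 33.7% ± 7.95, 17.2% ± 3.84 and 57.4% ± 13.5 (SD, n = 4, 6, 6 and 5). In two-sided exact permutation tests adjusted over 5 comparisons, HFD renin exceeded HFD null by 40.2 percentage points (p 0.00433, adjusted p 0.0216), chow null by 40.5 (p 0.0159, adjusted p 0.0265) and chow renin by 23.7 (p 0.00866, adjusted p 0.0216).

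Chow renin hearts also had a higher downstream share than chow null hearts, by 16.7 percentage points (exact permutation p 0.0286, adjusted p 0.0357), although total Rcan1 was not called between these groups. Chow null replicate 3, at 33.7%, lay inside the range of chow renin. The 2 null groups differed by 0.234 percentage points (exact permutation p 0.971, adjusted p 0.971). The call between the chow groups was lost in 7 of 10 tests that left out 1 library (chow null replicate 1, 2 or 4 and chow renin replicate 1, 2, 3 or 5, differences of 13.7 to 16.6 percentage points, adjusted exact p up to 0.0893), while HFD renin against chow null stayed fully separated at 37.4 to 39.3 percentage points without chow null replicate 1, 2 or 4. There the exact p of 0.0357 was the smallest that 5 against 3 hearts allow (adjusted p 0.0595). Without the 5 libraries with atrial transcripts the renin groups exceeded the null groups by 43.3 percentage points on the high-fat diet and 19.6 on chow, with no overlap. Each exact p (0.0159 and 0.0571) was then the smallest its 3 to 5 hearts per group allow, and the adjusted p of 0.0714 says nothing of stability.

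**Figure D1:**
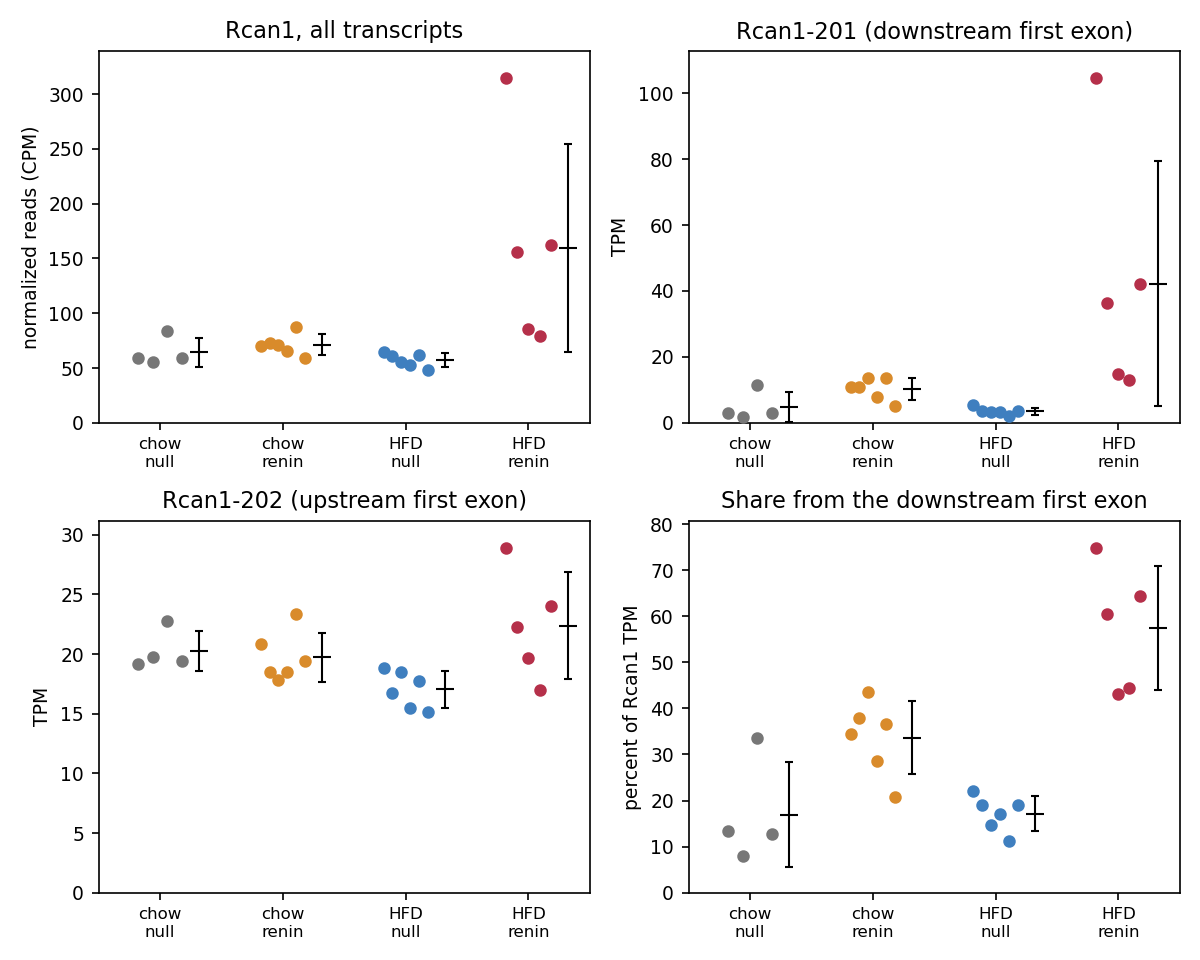
Rcan1 in each heart: normalized reads of the gene (CPM), TPM of the transcripts from the downstream and upstream first exons, and the share of Rcan1 TPM from the downstream first exon (percent). Each point is 1 heart in replicate order and black bars are the mean ± SD; Rcan1-201 reached 13.1 to 104 TPM in HFD renin while Rcan1-202 stayed between 15.1 and 28.9 TPM in all hearts.

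Several other measures moved with Rcan1. The clock score (mean log2 CPM of Per1, Per2, Per3, Nr1d1, Nr1d2, Dbp, Tef and Ciart minus that of Arntl, Npas2 and Clock) was 3.93 to 4.32 in chow null, 3.28 to 3.61 in chow renin, 3.60 to 3.96 in HFD null and 2.56 to 3.54 in HFD renin, and 76.8% of its variance lay between groups. HFD renin replicate 1 had the highest Rcan1 and the lowest clock score, followed on both measures by replicates 5 and 2. With that score as a covariate, the edgeR log2 fold change of Rcan1 against HFD null was 0.34 (adjusted p 0.998), that against chow null was −0.43 (adjusted p 0.893), that against chow renin was 0.62 (adjusted p 0.0112) and the interaction was 1.39 (adjusted p 0.000114). Renin on chow, not called without the score, became −1.05 (edgeR adjusted p 0.00992). In that fit 0 of the 15216 genes were called in HFD renin against either null group, and 7.59% in chow renin against chow null, 15.7% in HFD renin against chow renin and 14.4% for the interaction. The collection time of each heart is not given in the sources used here, so clock phase and group cannot be told apart.

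In a fit that included a central nervous score (mean log2 CPM of central neuron, oligodendrocyte and astrocyte markers, 89.9% of its variance between groups), Rcan1 was still higher in HFD renin than in HFD null, at 1.23 (edgeR adjusted p 0.00504), while the log2 fold change against chow renin turned to −0.32 (edgeR adjusted p 1) and the interaction to −0.55 (edgeR adjusted p 0.999). Of all genes, that fit called 8.25% in HFD renin against HFD null, 0.269% against chow renin and 0.151% for the interaction. In the fit restricted to the 9 hearts compared, the call against chow null was lost (log2 fold change 1.30, edgeR adjusted p 0.131). Without the libraries with atrial transcripts Rcan1 kept its calls against HFD null (1.61, edgeR adjusted p 0.00531) and chow null (1.60, edgeR adjusted p 0.0128), and the interaction did not pass (1.29, edgeR adjusted p 0.0978). Chow null replicate 3, one of those libraries, had the highest Rcan1, Rcan1-201 and Rcan1-202 of its group.

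**Figure D2:**
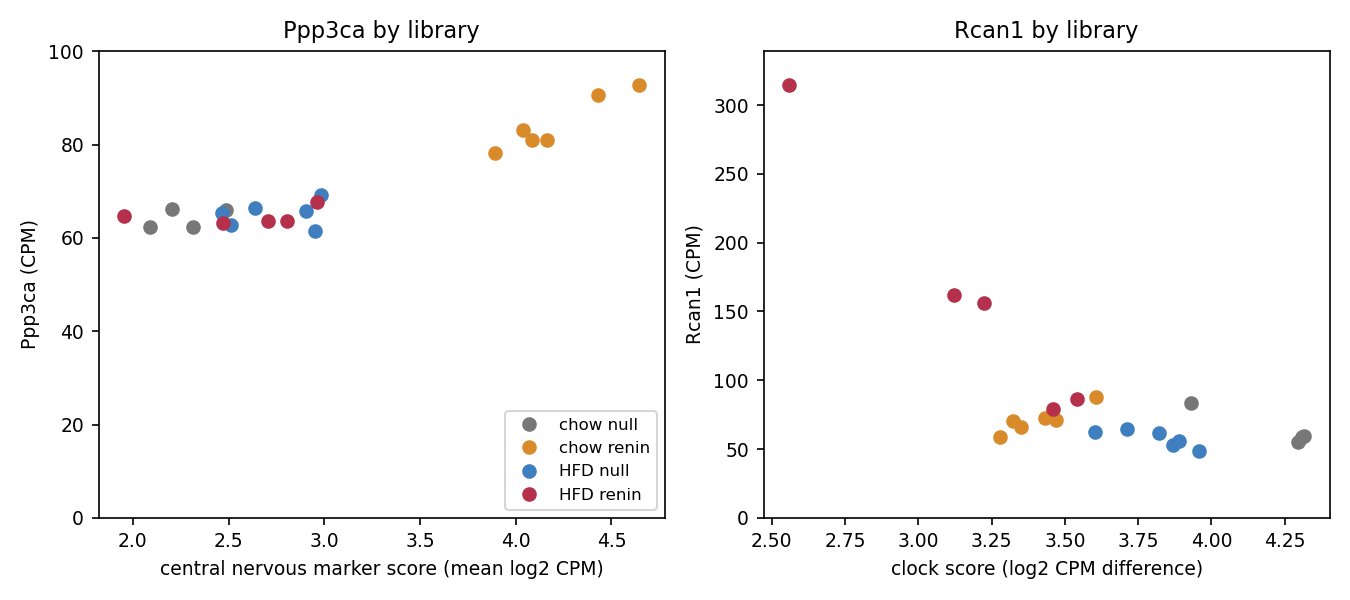
Ppp3ca (CPM) against the central nervous marker score and Rcan1 (CPM) against the clock score, 1 point per heart, colored by group. The 6 chow renin hearts stand apart on the left panel at 78.2 to 92.7 CPM, and HFD renin replicate 1 has the highest Rcan1, 314 CPM, at the lowest clock score, 2.56.

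Rcan2 (ENSMUSG00000039601, chromosome 17, 43801351 to 44039516), the second calcineurin inhibitor and the most abundant gene of the set, was highest in HFD renin, and by group mean lowest in chow renin in CPM and in HFD null in TPM (104 ± 9.72 TPM, n = 6, beside 114 ± 6.13 in chow renin, n = 6). It measured 417, 428, 397 and 368.5 CPM in chow null, 375, 386, 344, 349, 365 and 360.2 CPM in chow renin, 395, 401, 397, 386, 442 and 323 CPM in HFD null and 436, 481, 424, 419.7 and 463 CPM in HFD renin. The HFD renin and chow renin hearts did not overlap, and every other pair of groups did. Its log2 fold change between them was 0.29 (SE 0.07, adjusted p 0.00207 by edgeR), and its interaction was 0.33 (SE 0.10, adjusted p 0.0246 by edgeR). Against HFD null it was 0.19 (SE 0.07, adjusted p 0.0677 by edgeR).

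The Rcan2 interaction did not pass in 7 of 21 fits that each left out 1 library (chow null replicates 1 and 2, chow renin replicates 1, 3 and 5, and HFD renin replicates 1 and 2, edgeR adjusted p up to 0.0954). It also did not pass with upper quartile factors (edgeR adjusted p 0.0594), without the filter on low counts (edgeR adjusted p 0.0547) or without the libraries with atrial transcripts (edgeR adjusted p 0.145). Adjusted for the central nervous score, the log2 fold change against chow renin was 0.36 (edgeR adjusted p 1) and the interaction was 0.42 (edgeR adjusted p 0.999). In that fit 0.269% of all genes were called against chow renin and 0.151% for the interaction. Unlike Rcan1, Rcan2 drew 98.4% to 99.1% of its TPM, as group means, from its upstream first exons in every group. None of its transcripts was called.

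The catalytic subunits differed from each other. Ppp3ca (ENSMUSG00000028161, chromosome 3, 136670124 to 136937727), which encodes the alpha isoform, was higher in chow renin than in all other groups. It measured 65.9, 66.3, 62.3 and 62.3 CPM in chow null, 90.7, 92.7, 81.1, 81.0, 78.2 and 83.2 CPM in chow renin, 65.3, 69.1, 65.7, 61.6, 62.7 and 66.5 CPM in HFD null and 64.6, 63.3, 67.7, 63.6 and 63.6 CPM in HFD renin. All 6 chow renin hearts lay above the other 15. Its log2 fold change was 0.40 against chow null (SE 0.05, adjusted p 7.2e-06 by edgeR), and HFD renin was lower than chow renin by 0.39 (log2 fold change −0.39, SE 0.05, edgeR adjusted p 3.52e-06). The interaction was −0.41 (SE 0.07, adjusted p 0.000425 by edgeR), and each of these calls held without each library in turn.

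Transcripts Ppp3ca-201 and Ppp3ca-202 rose together in chow renin. Ppp3ca-201 averaged 5.33 TPM in chow null and 9.85 in chow renin (log2 fold change 0.79, SE 0.13, edgeR adjusted p 0.00101), and Ppp3ca-202 averaged 8.76 and 11.4 TPM (0.29, SE 0.06, edgeR adjusted p 0.0156). HFD renin was lower than chow renin in both, at −0.56 for Ppp3ca-201 (SE 0.12, adjusted p 0.00967 by edgeR) and −0.38 for Ppp3ca-202 (SE 0.06, adjusted p 0.000557 by edgeR). The interaction was called for Ppp3ca-202, at −0.39 (SE 0.09, adjusted p 0.0239 by edgeR).

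Markers of nervous tissue moved with Ppp3ca, as the plot against the central nervous score shows. All 7 central neuron markers had reads, none was under 1 CPM in all libraries, and their sum was 130.4 to 143 CPM in chow null, 264 to 403 in chow renin, 128 to 170 in HFD null and 103 to 168 in HFD renin. All 5 oligodendrocyte markers summed to 101 to 168 CPM in chow renin and 31.3 to 57.6 in the other groups, and all 4 astrocyte markers to 73.6 to 129.8 against 16.3 to 34.8. Adjusted for the central nervous score, the Ppp3ca log2 fold change against chow null was 0.14 (edgeR adjusted p 0.823), that of HFD renin against chow renin was −0.17 (adjusted p 1) and the interaction was −0.13 (adjusted p 0.999). In the fit with this score 0.283%, 0.269% and 0.151% of all genes were called in these comparisons, in place of 13.5%, 22.6% and 10.4%. Of the variance of the score, 89.9% lay between groups. The Ppp3ca interaction also did not pass with an offset for effective transcript length, at −0.39 (edgeR adjusted p 0.0681).

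Ppp3cb, the beta catalytic isoform, measured 72.4 ± 7.23 CPM in chow null, 71.7 ± 3.55 in chow renin, 72.1 ± 6.45 in HFD null and 69.3 ± 1.30 in HFD renin (SD, n = 4, 6, 6 and 5). All groups overlapped and no comparison passed. As a share of the TPM of the 3 catalytic genes, Ppp3ca was 33.2% ± 0.764, 42.3% ± 2.32, 34.8% ± 2.41 and 36.2% ± 1.83 in the same order, Ppp3cb was 44.7% ± 1.01, 39.7% ± 2.32, 45.6% ± 1.73 and 42.0% ± 1.53, and Ppp3cc, which encodes the gamma isoform, made up the rest. Ppp3r1, the regulatory subunit, ranged from 78.7 to 90.3 CPM in chow renin and from 69.2 to 78.1 CPM in HFD renin, with no overlap. HFD renin was lower in Ppp3r1 than chow renin by 0.19 (log2 fold change −0.19, SE 0.07, edgeR adjusted p 0.0442). That call was lost in 7 of 11 fits without 1 library (chow renin replicates 1, 2, 4 and 6 and HFD renin replicates 1, 4 and 5, edgeR adjusted p 0.0537 to 0.0991), and the sign turned to 0.09 adjusted for the central nervous score (edgeR adjusted p 1). It was also lost without the filter on low counts, with the clock score, with an offset for effective length and without the libraries with atrial transcripts (edgeR adjusted p 0.0586, 0.102, 0.0887 and 0.0951). The ratio of Ppp3r1 to summed catalytic TPM was 0.473 to 0.519 as group means.

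The 4 calcium-regulated NFAT factors were not called in any comparison. Nfatc1 measured 20.8 ± 1.79, 18.4 ± 1.38, 19.8 ± 1.33 and 19.5 ± 1.56 CPM in chow null, chow renin, HFD null and HFD renin (SD, n = 4, 6, 6 and 5). Nfatc2 measured 20.8 ± 1.82, 19.1 ± 2.82, 20.5 ± 1.31 and 22.1 ± 2.90 CPM, and Nfatc3 16.4 ± 2.34, 15.1 ± 1.78, 15.5 ± 1.41 and 16.5 ± 1.83 CPM. Nfatc4, the least abundant, measured 7.05 ± 1.14, 6.63 ± 1.17, 7.97 ± 3.12 and 7.08 ± 1.59 CPM, and its HFD null libraries ran from 4.90 to 12.2 CPM. The groups of every NFAT gene overlapped.

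Ppp3cb and the 4 NFAT genes are the members without a call by edgeR, so a count of 0 over them follows from the grouping, and DESeq2 also gave 0 calls in their 30 tests. Their log2 fold change of the largest size was 0.23 and the lowest edgeR adjusted p 0.122. The largest size grew to 0.75 with the central nervous score, 0.66 with the clock score and 0.36 with an offset for effective length, and 0, 0 and 1 of the 30 tests then passed. Unadjusted p was under 0.05 for Nfatc1 in chow renin against chow null (−0.18, SE 0.08) and for Nfatc2 in HFD renin against chow renin (0.21, SE 0.10). Nfatc2 passed that comparison with an offset for effective length (edgeR adjusted p 0.0316) and without HFD renin replicate 3 (edgeR adjusted p 0.0265), which held the lowest Nfatc2 of its group, 17.4 CPM. NFAT proteins are best known from T cells, and the T cell markers Cd3e, Cd3g, Cd3d, Cd2 and Trac were each under 1 CPM in all 21 hearts. The share of TPM from the upstream first exon averaged 13.4% to 19.1% for Nfatc1 and 16.4% to 28.96% for Nfatc2 over the groups.

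**Figure D3:**
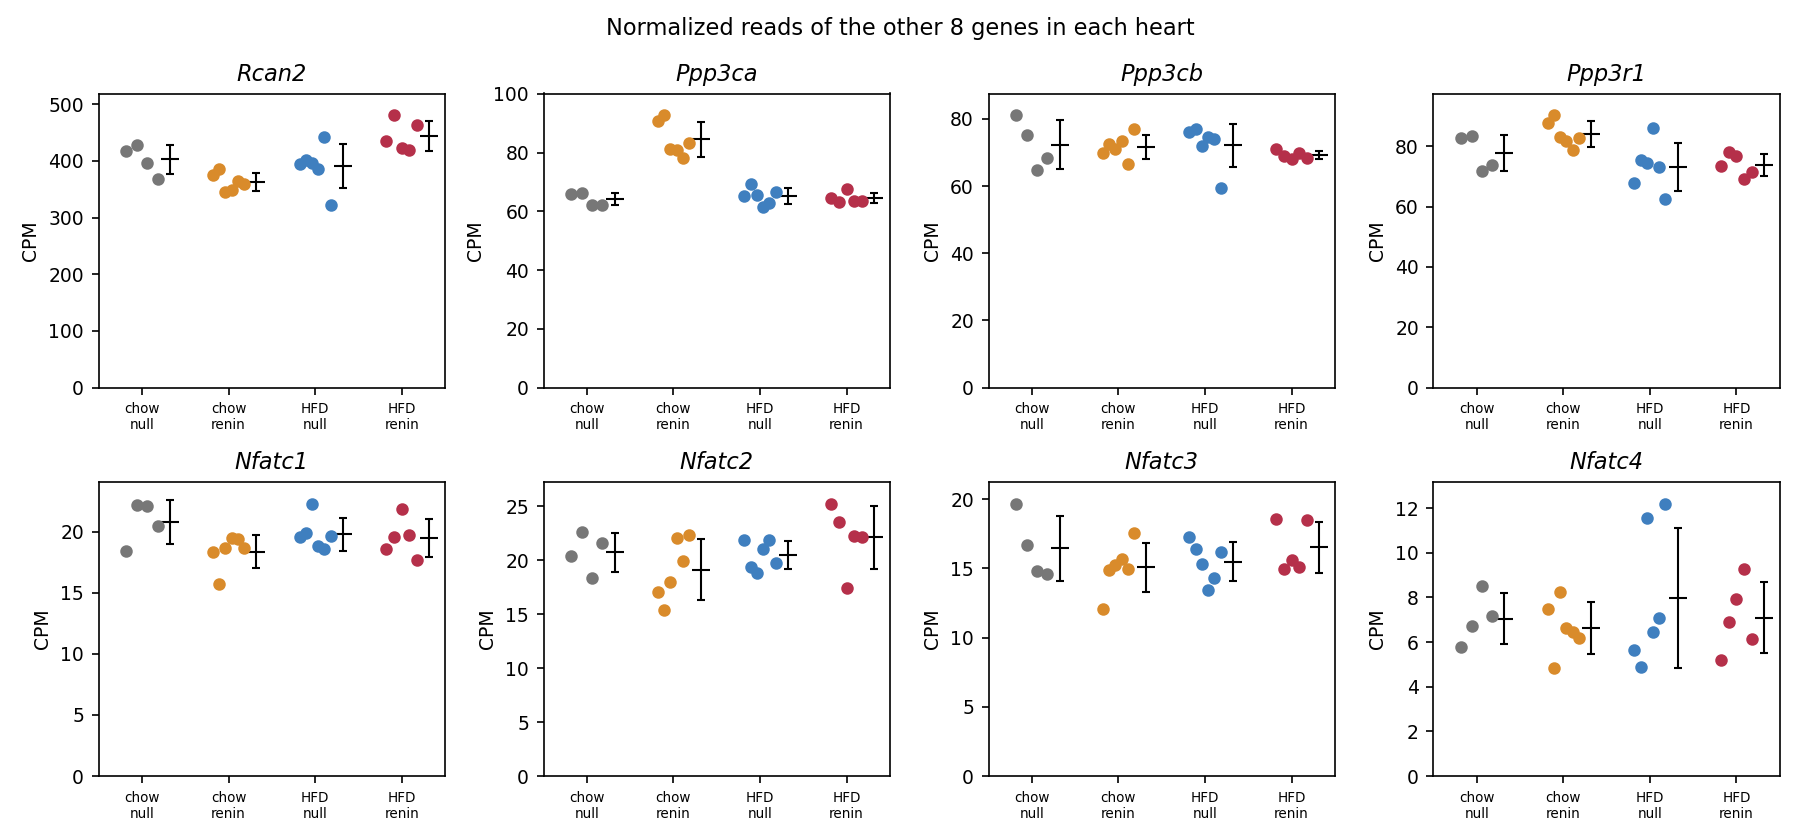
Normalized reads (CPM) of the other 8 genes in each heart, with 1 point per heart in replicate order and the mean ± SD in black, on axes that start at 0. Ppp3ca separates chow renin from the other groups, and the 4 NFAT genes overlap between all groups.

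Counted over the 9 genes, 1 rose in HFD renin against chow null (Rcan1), where 8.29% of all genes tested were called. In chow renin against chow null 1 was called (Ppp3ca), against a background of 13.5%. In HFD null against chow null 0 were called by edgeR and 0 by DESeq2, 0 had an unadjusted p under 0.05, and the background was 0.0657%. In HFD renin against HFD null 1 was called (Rcan1), with a background of 11.1%. HFD renin against chow renin called 4 of 9 (Rcan1 and Rcan2 higher, Ppp3ca and Ppp3r1 lower), where 22.6% of all genes were called, and the interaction called 3 of 9 (Rcan1, Rcan2 and Ppp3ca), where 10.4% were called. The median log2 fold change of the 9 genes lay between −0.09 and 0.15 over the 6 comparisons, beside −0.03 to 0.02 for all genes tested.

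**Figure D4:**
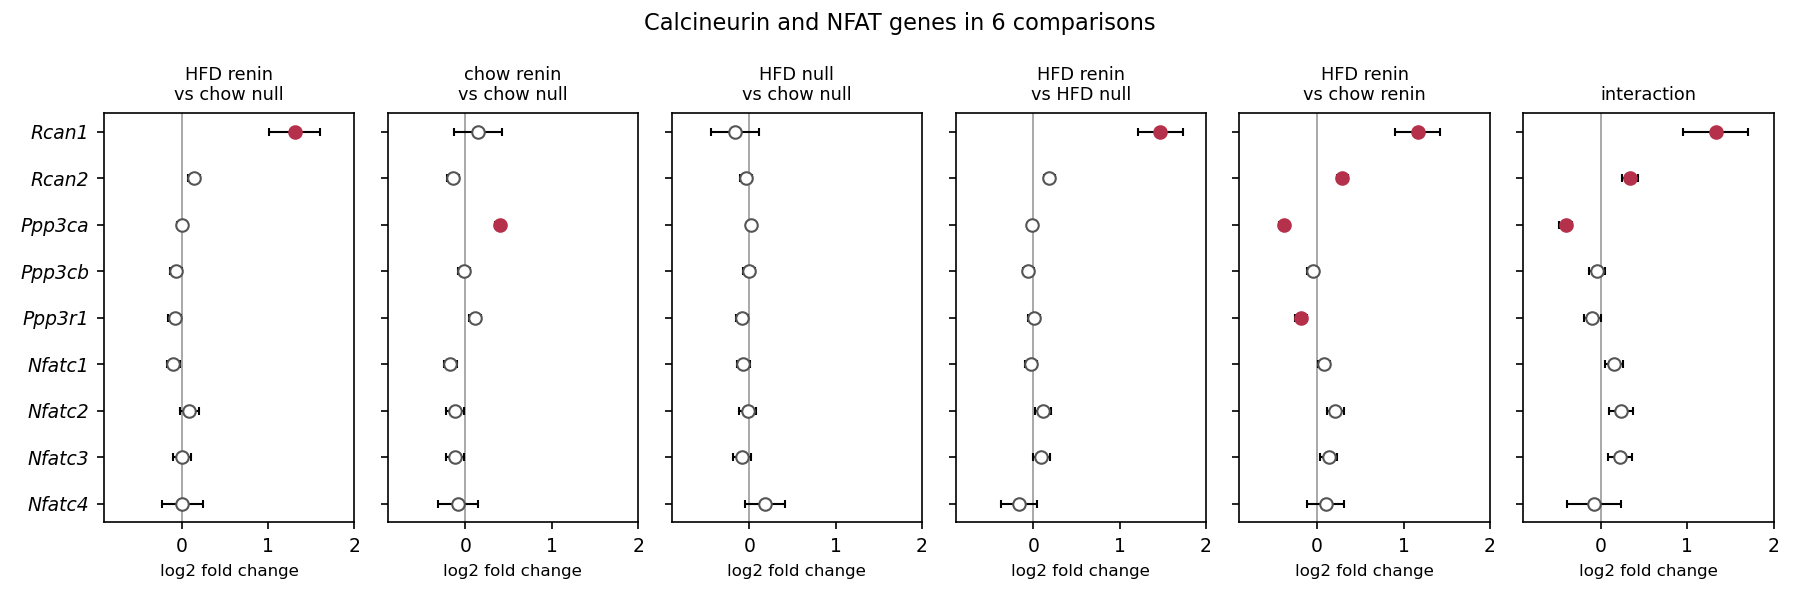
Log2 fold change ± SE of the 9 genes in 6 comparisons; filled points passed an edgeR adjusted p under 0.05. Rcan1 lies at 1.16 to 1.47 in the 3 comparisons of HFD renin with another group, and the NFAT genes lie at 0.23 or less in size throughout.

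Upstream of the phosphatase, 8 of 9 calcium and calmodulin supply genes were tested. Orai1, the pore of store-operated calcium entry, fell from 10.2 ± 1.16 CPM in chow null to 7.95 ± 1.04 in chow renin (log2 fold change −0.36, SE 0.12, edgeR adjusted p 0.0499; the call was lost in 8 of 10 fits without 1 library and in 7 of 10 other settings, edgeR adjusted p 0.0524 to 0.783). Calm2, a calmodulin gene, was lower in HFD renin than in chow renin, 94.8 ± 12.1 against 116 ± 4.22 CPM (−0.29, SE 0.07, edgeR adjusted p 0.00226). The interaction was negative for Calm2 (−0.34, edgeR adjusted p 0.0220) and Calm3 (−0.28, edgeR adjusted p 0.0223). Adjusted for the central nervous score, which was highest in chow renin, Calm2 lost its call against chow renin (−0.25, edgeR adjusted p 1), and both interactions were lost (Calm2 −0.28, Calm3 −0.24, edgeR adjusted p 0.999 for each). In that fit 0.269% of all genes were called against chow renin and 0.151% for the interaction, so these losses are not particular to the calmodulin genes. Over 9 other settings the interaction was lost in 3 for Calm2 and 4 for Calm3, this score included. In the 3 remaining comparisons, HFD renin against chow null, HFD null against chow null and HFD renin against HFD null, none of the 8 was called, where 8.29%, 0.0657% and 11.1% of all genes were. The calls above stood beside 13.5% of all genes for renin on chow, 22.6% for HFD renin against chow renin and 10.4% for the interaction.

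Of 13 other calcineurin subunits, anchors and binding proteins, 12 were tested. Ppp3cc rose from 18.9 ± 1.25 CPM in HFD null to 22.2 ± 1.65 in HFD renin (log2 fold change 0.23, SE 0.07, edgeR adjusted p 0.0325), and its interaction was 0.33 (SE 0.10, adjusted p 0.0364 by edgeR). In HFD renin against chow renin, where 22.6% of all genes were called, 3 of the 12 were higher and 1 was lower: Fhl2, a LIM protein that binds calcineurin in muscle, at 0.38 (edgeR adjusted p 0.00897), Chp1, a calcineurin B homolog, at 0.14 (adjusted p 0.0416), Fkbp1a, the partner of the calcineurin inhibitor tacrolimus, at 0.13 (adjusted p 0.0427), and Akap5, an anchoring protein, at −0.62 (adjusted p 0.00427). The Ppp3cc call was lost in 4 of 11 fits without 1 library and its interaction in 13 of 21, Chp1 in 9, Fkbp1a in 10 and Fhl2 in 1 (HFD renin replicate 1). Over 10 other settings Chp1 lost its call in 8 and Fkbp1a in 7, with upper quartile factors among them (edgeR adjusted p 0.231 and 0.273), and Ppp3cc in 5, as did its interaction in 5 of 9. Adjusted for the central nervous score, Akap5 lost its call (−0.54, edgeR adjusted p 1) and the sign of Fhl2 turned, at −0.09 (edgeR adjusted p 1). In that fit 0.269% of all genes were called in HFD renin against chow renin, in place of 22.6%. Without the score, none of the 12 passed the test against chow null in HFD renin, chow renin or HFD null. Of all genes, 8.29%, 13.5% and 0.0657% were called there, shares at which few or no calls would fall among 12 genes.

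All 10 NFAT kinases, which return NFAT proteins to the cytoplasm, were tested. Csnk1e, a casein kinase that also acts on clock proteins, was lower in HFD renin than in chow null (−0.34, SE 0.07, edgeR adjusted p 0.00616) and in HFD null (−0.30, SE 0.07, edgeR adjusted p 0.00625). It measured 47.4 ± 1.94, 42.0 ± 1.80, 46.2 ± 2.49 and 37.4 ± 4.73 CPM in chow null, chow renin, HFD null and HFD renin. Mapk14, the p38 alpha kinase, fell from 81.3 ± 5.83 CPM in HFD null to 62.3 ± 6.72 in HFD renin (−0.38, SE 0.08, edgeR adjusted p 0.00452). Both genes lost these calls in the fit that included the clock score: Csnk1e was −0.20 against chow null (edgeR adjusted p 0.893) and −0.21 against HFD null (edgeR adjusted p 0.998), and Mapk14 was −0.30 (edgeR adjusted p 0.998). That fit called 0 of all 15216 genes in either comparison, so these losses are not particular to Csnk1e and Mapk14. The Csnk1e call against HFD null was also lost in the fit of only those groups (−0.30, edgeR adjusted p 0.0505). The other 8 kinases were not called. Without that score, 8.29% of all genes were called against chow null and 11.1% against HFD null. Among 7 nuclear partners, all tested, Gata4 was lower in chow renin than in chow null, 81.9 ± 5.94 against 98.9 ± 10.3 CPM (−0.27, SE 0.09, edgeR adjusted p 0.0339), a call lost in 6 of 10 fits without 1 library and in 7 of 10 other settings, and turned to 0.22 adjusted for the central nervous score (edgeR adjusted p 0.814). No partner was called elsewhere. Of all genes, 13.5% were called in chow renin against chow null, and 0.283% adjusted for the central nervous score.

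Of 6 genes known as NFAT or calcineurin targets, 5 were tested. Acta1, skeletal alpha actin of the fetal program, measured 142 to 422 CPM in chow null, 41.9 to 724 in chow renin, 56.5 to 184 in HFD null and 670.1 to 2499 in HFD renin. It was higher in HFD renin than in HFD null by a log2 fold change of 3.91 (SE 0.57, adjusted p 0.00106 by edgeR), than in chow null by 2.68 (SE 0.63, adjusted p 0.0157 by edgeR) and than in chow renin by 1.81 (SE 0.53, adjusted p 0.0195 by edgeR), with an interaction of 3.04 (SE 0.76, adjusted p 0.0145 by edgeR). Myh7, the beta myosin heavy chain, rose in HFD renin against HFD null (2.57, SE 0.49, edgeR adjusted p 0.00371) and chow null (2.05, SE 0.56, edgeR adjusted p 0.0308). It did not pass between HFD renin and chow renin (0.46, SE 0.47, edgeR adjusted p 0.546), in chow renin against chow null (1.59, SE 0.53, edgeR adjusted p 0.0571) or for the interaction (0.98, SE 0.69, edgeR adjusted p 0.441). Myh7 measured 375 to 744 CPM in chow null, 295 to 2513 in chow renin, 190 to 608 in HFD null and 1026 to 3687 in HFD renin, so 5 of the 6 chow renin hearts lay above both null groups and overlapped with HFD renin. Nppb, which encodes the B-type natriuretic peptide, rose against HFD null (2.01, SE 0.53, edgeR adjusted p 0.0217), at 102 to 629.9 CPM against 15.9 to 99.4, and did not pass against chow renin (1.397, SE 0.52, edgeR adjusted p 0.0614) or for the interaction (2.31, SE 0.75, edgeR adjusted p 0.0582). Nor was Nppb called in HFD renin against chow null, where the chow null hearts, at 99.1 to 166 CPM, overlapped with HFD renin.

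Ptgs2, the inducible cyclooxygenase, measured 69.6 to 81.4 CPM in chow renin and 13.2 to 19.4 CPM in the other 15 hearts, a log2 fold change of 2.11 in chow renin against chow null (SE 0.09, adjusted p 8.36e-14 by edgeR). Edn1 was not called in any comparison, and Trpc6, which stands in 2 of the lists, was below the filter, at most 0.502 CPM. The Acta1 call against chow null was lost without chow null replicate 1, 2 or 4 (edgeR adjusted p 0.0512 to 0.0616), and that against chow renin without HFD renin replicate 1 or 5 (edgeR adjusted p 0.0508 to 0.0652). The Myh7 call against chow null was lost in 5 of 9 fits without 1 library, and the Nppb call without HFD renin replicate 1 (edgeR adjusted p 0.105). In the fits of only the groups compared and without the libraries with atrial transcripts, Nppb lost its call (edgeR adjusted p 0.0966 and 0.0502), as did Myh7 against chow null (edgeR adjusted p 0.0558 and 0.0802). The Nppb value adjusted for the central nervous score was 1.76 (edgeR adjusted p 0.0608). The Acta1 call against chow renin was lost in 4 of 10 other settings. The Acta1 interaction was lost in 2 of 9, without the libraries with atrial transcripts (edgeR adjusted p 0.0672) and with the central nervous score. With the clock score as a covariate 0 genes of the pathway lists were called in HFD renin against chow null, in place of 3, and 0 against HFD null, in place of 6. That fit called 0 of all 15216 genes in both, so the Acta1 and Myh7 calls there and the Nppb call against HFD null were lost too. Adjusted for the central nervous score, Ptgs2 was the 1 pathway list gene still called in HFD renin against chow renin and for the interaction, where 0.269% and 0.151% of all genes were called, and Acta1 measured 1.78 (edgeR adjusted p 1) and 3.001 (edgeR adjusted p 0.999) there. In chow renin, replicate 6 had the lowest Acta1 (41.9 CPM), Myh7 (295 CPM), Nppb (48.2 CPM) and Rcan1 (58.9 CPM) of its group.

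**Figure D5:**
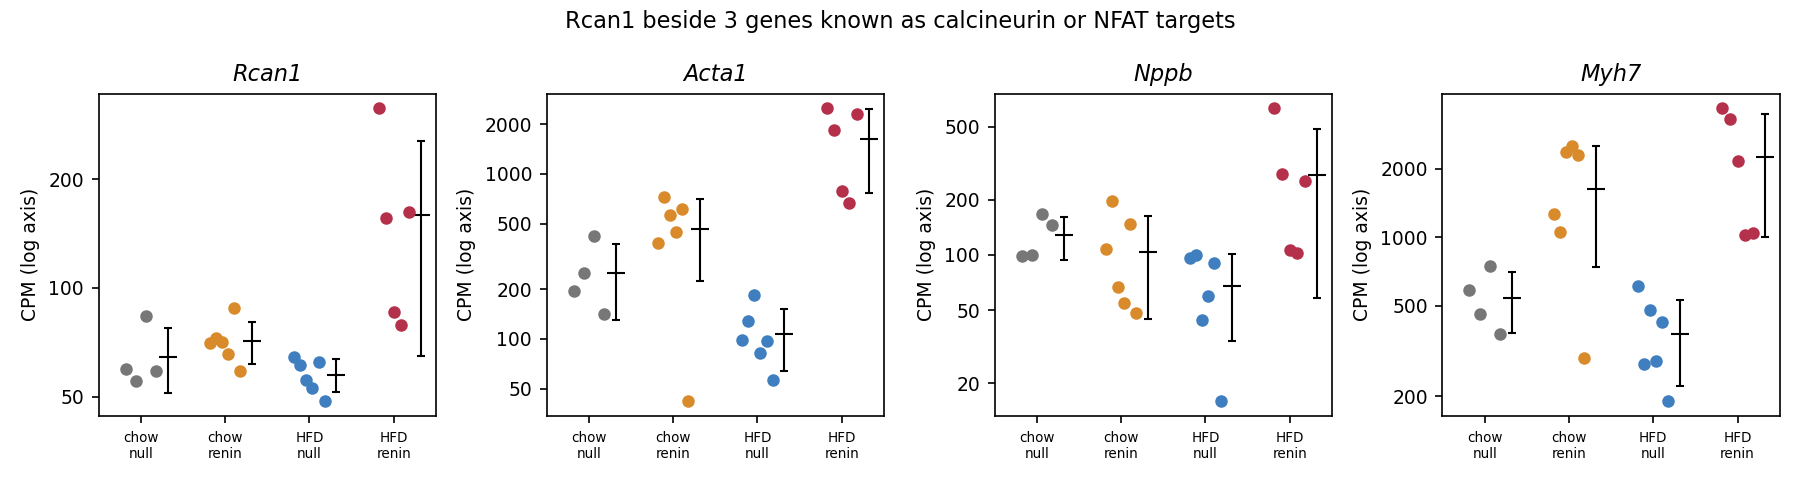
Rcan1, Acta1, Nppb and Myh7 in each heart (CPM, log axis), with 1 point per heart and the mean ± SD in black. Acta1, Nppb and Myh7 are 3 of the 6 listed target genes. Ptgs2 (highest in chow renin), Edn1 (not called) and Trpc6 (below the filter) are not shown. In HFD renin, replicates 1, 2 and 5 are the 3 highest of their group for Rcan1, Acta1 and Nppb, and replicates 3 and 4 the lowest; Myh7 orders the hearts differently.

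The genes whose log2 CPM followed Rcan1 most closely over the 21 libraries were Pfkp, a phosphofructokinase (Pearson r 0.958), Kif5b, a kinesin motor (0.955), Uck2, a pyrimidine salvage kinase (0.950), Enah, an actin regulator (0.949), and Xirp2, an actin-binding protein of the intercalated disc (0.948). All 5 were highest on average in HFD renin, for example Xirp2 at 764 CPM against 193 in HFD null, and group, depth and clock score also differ between these libraries. Within the 9 genes, the correlation with Rcan1 was highest for Rcan2 (0.562) and lowest for Nfatc4 (−0.306). Ppp3ca and Ppp3r1 had a correlation of 0.626, and Ppp3ca and Nfatc2 of −0.542.

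In the authors' deposited table, whose reference group is not stated, Rcan1 had a log2 fold change of 1.07 and an adjusted p of 0.000783. The other 8 genes lay between −0.07 and 0.11 in the authors' deposited table, with adjusted p of 0.312 or more.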

How the data were processed

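RNA from 21 mouse hearts was analysed, grouped by the sample titles. Per the submitters' processing notes the tools were Salmon 1.10.2 and DESeq2 1.40.2; the index and options are not given in the sources used here. The authors deposited a transcript table per library with estimated counts (expected counts, not normalized) and TPM per effective transcript length, and a gene table with a signal per library (not used for tests), and, for 1 comparison, log2 fold changes with adjusted p-values. Of 119215 transcripts, 98.0% matched GENCODE M21 (GRCm38); unmatched ones held 0.854% to 0.925% of the reads. Transcript estimates were added up per gene, then rounded to whole counts. Of 23718 genes with reads, filterByExpr kept 15216; of 91122 transcripts with reads, 40861, among them 34 of 67 transcripts of the 9 genes. edgeR 4.0.16 (R 4.3.3) ran TMM scaling, group means over all 21 libraries in 1 model, robust glmQLFit and the quasi-likelihood F test, with Benjamini-Hochberg adjustment over all genes or transcripts and a threshold of 0.05. The standard error is the log2 fold change over the square root of F. Shares of Rcan1 TPM were compared by exact permutation (scipy 1.17.1). Alternatives included DESeq2 1.42.0, other scaling and filters, score covariates, thinning and leaving out libraries. The fits were tested on simulated data. Promoter sequences are from RefSeq (GRCm38.p6). The 9 genes, the pathway lists and the motifs were chosen with earlier results of these data known. All 9 genes are named in every comparison, of each pathway list up to 4 called genes per comparison, and the 5 genes most correlated with Rcan1. The result for 1 listed gene is not reported here. Nothing states more than 1 library per heart; p-values measure the spread between these hearts. Depth before matching was 18743226 to 29265430 estimated reads per library. The main fits did not treat replicate numbers as pairs.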

Additional observations from a re-analysis of the deposited data

Results flagged for a closer look

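A library was picked out where its gap to the nearest of its group was large for the group's range, by Dixon's test at the 95% level; 48 groups of values were examined and 6 were picked, and chance alone picks about 1 in 20. In chow null, replicate 3 was the highest for Rcan1 (83.8 CPM), Rcan1-201 (11.6 TPM) and Rcan1-202 (22.8 TPM); it is 1 of the 5 libraries with atrial transcripts, with Sln at 73.1 CPM. In HFD null, replicate 6 had the lowest Ppp3cb (59.5 CPM), and it is the library with the lowest Nnt, while replicate 3 had the highest Nfatc1 (22.3 CPM) and also held atrial transcripts. In chow renin, replicate 2 had the lowest Nfatc1 (15.7 CPM). The part of atrial transcripts or of Nnt in these values was not tested.

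In the fit of all groups the edgeR interaction test called a difference in the renin effect between diets for Rcan1 (log2 difference 1.33, adjusted p 0.0302), Rcan2 (0.33, adjusted p 0.0246) and Ppp3ca (−0.41, adjusted p 0.000425). Adjusted for the central nervous score 0 of these 3 passed, where 0.151% of all genes were called, and Rcan1 turned to −0.55 (edgeR adjusted p 0.999). Without 1 library, Rcan1 passed in 16 of 21 fits, Rcan2 in 14 of 21 and Ppp3ca in 21 of 21, and with a replicate block Rcan1 did not pass (1.196, edgeR adjusted p 0.0724).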

How the results depend on the processing

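The main fits did not treat the hearts' replicate numbers as pairs. Of 28 same-number pairs across groups, 11 had deviations correlated above 0.1 (median 0.0775, range −0.226 to 0.421, beside a median of −0.0248 for 136 other pairs). In all, 7 of 21 libraries correlated best with their own number. Replicate 3 of every group held atrial transcripts. Whether the numbers mark a pairing is not settled by these values. With the replicate block the counts of the 9 genes called stayed within 1.5 times in every comparison, Rcan1-201 against chow renin was 1.87 (edgeR adjusted p 0.0522) and the Rcan1 interaction 1.196 (edgeR adjusted p 0.0724). DESeq2 changed no call of Rcan1, Rcan2, Ppp3ca or Ppp3r1. Of the 9 genes, 0 were called in HFD renin against chow null in the fit of only these groups (1 in the fit of all groups). The share of all genes called there was 5.63%, in place of 8.29%. Without the filter on low counts the interaction called 1 of the 9 genes in place of 3, beside 5.73% of all genes in place of 10.4%. Rcan1-201 against chow renin was then 2.08 (edgeR adjusted p 0.0514). The fits without the libraries with atrial transcripts, and the score covariates for transcripts, were chosen after seeing the data. Without those libraries the interaction called 1 of the 9 genes, beside 7.17% of all genes, and Rcan1-201 in HFD null against chow null turned to 0.61. The downstream share then differed by 49.6 percentage points (HFD renin against chow null), 19.6 (chow renin against chow null), 43.3 (HFD renin against HFD null) and 30.0 (HFD renin against chow renin), all with an adjusted exact p of 0.0714, where each exact p was the smallest its group sizes allow.

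With the clock score as a covariate, 0 of all 15216 genes and 0 of all 40861 transcripts were called in HFD renin against either null group, so 0 of the 9 genes were, and 2 of them were called in chow renin against chow null (7.59% of all genes). Pathway list genes called became 0 (chow null, from 3) and 0 (HFD null, from 6) for HFD renin, 4 against chow renin (from 7) and 10 for the interaction (from 5), beside 15.7% and 14.4% of all genes. Rcan1 turned to −0.43 in HFD renin and −1.05 in chow renin against chow null (the latter with edgeR adjusted p 0.00992). Rcan1-201 lost its calls, at 0.41 against chow null, 1.49 against HFD null and 1.07 against chow renin (edgeR adjusted p 1, 1 and 0.213), and was −0.66 in chow renin against chow null and 2.15 for the interaction, which then passed (edgeR adjusted p 0.0311), and Rcan1-202 turned to −0.36 and −0.039 against the null groups. With the central nervous score, 0 of the 9 genes were called in chow renin against chow null, in HFD renin against chow renin and for the interaction, and pathway list genes called fell to 1 in each of these (from 4, 7 and 5), while over all genes the shares called fell to 0.283%, 0.269% and 0.151%. Signs turned for Rcan1 in HFD null against chow null (0.23), HFD renin against chow renin (−0.32) and the interaction (−0.55), for Rcan1-201 in HFD null against chow null (0.15), for Rcan1-202 in HFD renin against chow renin (−0.19) and the interaction (−0.19), and for Ppp3r1 (0.091), Fhl2 (−0.087) and Gata4 (0.22) in the comparisons that called them, while Rcan1-201 against chow renin was 0.19. Both scores lay mostly between groups, and the cause of these changes was not tested.

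Leaving out 1 library at a time, the 9 genes gave 1 to 2 calls in HFD renin against HFD null and 1 to 3 for the interaction. With all libraries, 11.1% and 10.4% of all genes were called there. Rcan1-201 ranged from 2.52 to 3.98 against chow null, from 1.48 to 2.29 against chow renin and from −0.59 to 0.56 in HFD null against chow null. The downstream share differed by 36.1 to 46.0 percentage points between HFD renin and chow null, 13.7 to 22.3 between chow renin and chow null and −2.78 to 5.81 between HFD null and chow null. The Ppp3cc interaction was lost in 13 of 21 such fits.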
